A study of Mus musculus with 24 samples.

Results

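The results below concern 10 genes that set whether a cell enters the division cycle: the CDK inhibitors Cdkn1a, Cdkn1b, Cdkn1c, Cdkn2a, Cdkn2b, Cdkn2c and Cdkn2d, and the D cyclins Ccnd1, Ccnd2 and Ccnd3. They were taken by gene name from one-colour microarrays of mouse macrophages, which gave 10 of 10 named genes and 20 of the 56605 gene probes on the array. The cells were macrophages grown from bone marrow for 6 days in 20 ng/ml M-CSF, the growth factor on which macrophages depend to survive and divide. WT cells came from Slc2a1 fl/fl mice, whose gene for the glucose transporter GLUT1 is flanked by recombination sites but intact. KO cells (Slc2a1M-/-) carried the same floxed alleles together with LysM-Cre, a Cre recombinase expressed from the lysozyme gene Lyz2 in myeloid cells. Both genotypes were left untreated (M0), given 5 ng/ml LPS with 10 ng/ml IFNγ (M1), or given 10 ng/ml IL-4 (M2), in each case for 24 h. Each of the 6 groups had 4 biological replicates, 24 arrays in all.

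D cyclins bind and activate the kinases CDK4 and CDK6, which phosphorylate the retinoblastoma protein and free E2F factors to switch on the genes of S phase. INK4 inhibitors (Cdkn2a to Cdkn2d) bind CDK4 and CDK6 and block that step, whereas CIP/KIP inhibitors (Cdkn1a to Cdkn1c) act mainly on CDK2 complexes and can also help D cyclins to assemble with their kinases. In macrophages M-CSF induces D cyclins and drives division, and activation by LPS and IFNγ arrests it. These are mRNA levels, and several of the 10 proteins are controlled mainly by degradation, which an array does not measure.

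Levels are given as log2 intensity relative to the 75th percentile of the gene probes on the same array, so that a level of 1 lies 1 log2 step above that percentile and differences are log2 differences between group means. A level of one gene cannot be set against that of another, since each probe binds with its own strength. Each member was counted by its brightest probe, and a gene was called where the limma test across all 38857 tested probes gave a Benjamini-Hochberg adjusted p under 0.05. Errors of levels are SDs over 4 arrays unless another n is given, and errors of differences are standard errors of the fit.

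Facts of the whole series that touch these results are few. The 75th percentile lay between 1504 and 2973 intensity units, and the KO M1 arrays were the dimmest (1504 to 1705, against 1810 to 2364 in WT M1). The signal of Slc2a1 itself was not lower in KO (log2 difference -0.33 ± 0.35, 0.25 ± 0.35 and -0.18 ± 0.35 in M0, M1 and M2, adjusted p = 1.0, 0.578 and 1.0 by limma). Its levels ran from 2.06 to 3.76 in WT M0, 1.86 to 3.1 in KO M0, 5.02 to 6.17 in WT M1, 5.81 to 6.11 in KO M1, 2.91 to 4.37 in WT M2 and 3.04 to 3.64 in KO M2. The labels do not say which exons are removed, so this probe may lie outside the deleted part and checks nothing about it. Lyz2, which carries the Cre insertion, was lower in KO in every state (-2.66 ± 0.37, -3.37 ± 0.37 and -4.04 ± 0.37, adjusted p = 0.00196, 2.2e-07 and 6.5e-06 by limma), with no overlap between the genotypes. All 12 macrophage markers were well above background on all 4 arrays of each group, except 11 in KO M1. All 10 markers of M1 activation rose with LPS and IFNγ in both genotypes, and 8 of 10 markers of M2 activation rose with IL-4 in both.

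One set of 6 arrays stood apart. The arrays at the last 2 positions of the 3 slides, called the 4th set here, hold replicate 2 of M0, replicate 3 of M1 and replicate 4 of M2 in both genotypes. On these, Xist was well above background on 6 of 6 arrays and the Y-linked gene Ddx3y on 0 of 6, against 2 of 18 and 18 of 18 elsewhere. The set also read lower for the 32 S phase and mitosis genes in M0 (median log2 difference from the other sets -1.31 in WT and -1.23 in KO) and in M2 (-0.89 and -0.83), but not in M1 (0.17 and 0.20). Several members moved with it, most of all Ccnd1, which differed from the other sets by -4.33 in WT M0 and -3.44 in KO M0. By their brightest probes Cdkn2b and Cdkn1a were lower in the 4th set in all 6 groups, Cdkn2d likewise. Cdkn2c was lower in 6 of 6 as well, with differences of -0.01 in WT M1 and -1.47 to -0.63 elsewhere. The Cdkn1a probe A_55_P1976204 was instead higher there in all 6 groups (-1.51 against -3.13 in WT M2, -1.91 against -2.26 in KO M1). A further Cdkn1a probe, A_55_P1986282, went both ways. What else distinguishes the set, and what underlies its other differences, was not tested. Calls of brightest probes that change without it are given with and without it.

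**Figure D1:**
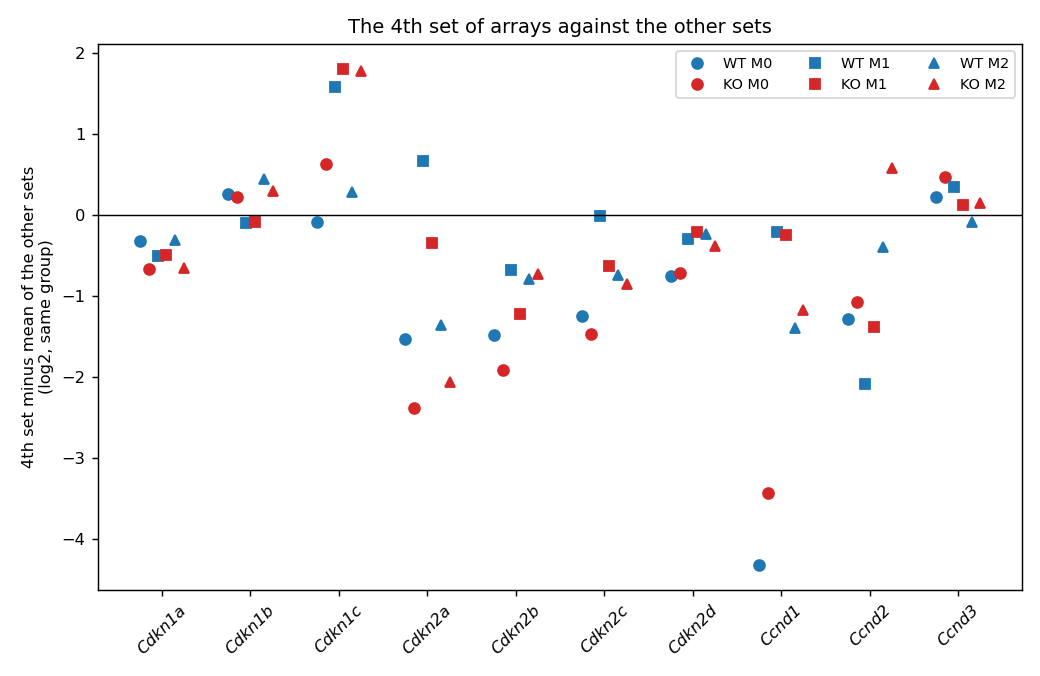
The level of each member (brightest probe) on the array of the 4th set minus the mean of the other sets of the same group (vertical axis, log2; blue WT, red KO; circles M0, squares M1, triangles M2). Ccnd1 in M0 lies farthest from 0, at -4.33 in WT and -3.44 in KO, and Cdkn1c in KO M1 lies highest, at 1.81.

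Promoter sequences are printed for Cdkn1a and Ccnd3, members that changed with activation and have probes assigned to different transcripts. Cdkn1b meets this too and is not printed, so the choice does not follow from that rule alone. The table of RefSeq promoters (build GRCm38.p6) held 11 starts of 7 members (Cdkn1a, Cdkn1b, Cdkn2a, Cdkn2b, Cdkn2c, Cdkn2d and Ccnd3). Each run gives the 250 bases before a start, 5′ to 3′ on the strand of the gene. Capitals mark matches of ACATGT (the core of a p53 half-site) and of GGGGCGGGG (an Sp1-type box) in Cdkn1a, and of GGGGCGGGG and GTAAACA (a FOXO-type box) in Ccnd3, on either strand.
Cdkn1a, upstream start (chr17:29090729-29090978, plus strand): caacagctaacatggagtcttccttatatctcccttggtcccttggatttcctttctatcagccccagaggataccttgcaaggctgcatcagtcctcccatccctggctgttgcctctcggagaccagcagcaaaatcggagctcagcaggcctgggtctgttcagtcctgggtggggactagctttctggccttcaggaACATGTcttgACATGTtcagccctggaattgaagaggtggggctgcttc
Cdkn1a, downstream start (chr17:29093519-29093768, plus strand): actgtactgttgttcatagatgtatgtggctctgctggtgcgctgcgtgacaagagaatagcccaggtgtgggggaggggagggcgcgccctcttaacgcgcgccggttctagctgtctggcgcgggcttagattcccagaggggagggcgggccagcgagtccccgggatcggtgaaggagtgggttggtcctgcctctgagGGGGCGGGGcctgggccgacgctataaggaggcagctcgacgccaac
Ccnd3, upstream start (chr17:47504801-47505050, plus strand): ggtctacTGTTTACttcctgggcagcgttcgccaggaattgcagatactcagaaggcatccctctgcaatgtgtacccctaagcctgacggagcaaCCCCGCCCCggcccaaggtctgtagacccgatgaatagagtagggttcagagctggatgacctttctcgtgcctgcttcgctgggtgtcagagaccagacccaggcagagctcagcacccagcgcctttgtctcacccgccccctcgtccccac
Ccnd3, downstream start (chr17:47593217-47593466, plus strand): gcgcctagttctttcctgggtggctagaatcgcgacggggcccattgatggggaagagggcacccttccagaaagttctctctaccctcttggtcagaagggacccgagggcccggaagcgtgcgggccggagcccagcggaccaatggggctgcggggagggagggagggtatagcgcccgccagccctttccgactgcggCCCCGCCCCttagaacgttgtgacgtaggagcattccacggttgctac

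The upstream start of Cdkn1a holds ACATGT at positions -49 and -39, counted back from the start, and the downstream start, 2790 bases further on, holds none. Among all 32851 promoters given, 4.58% hold ACATGT, and 81 (0.247%) hold at least 2 copies. GGGGCGGGG, present before the downstream start of Cdkn1a and both starts of Ccnd3, is in 10.4% of promoters, and GTAAACA in 3.17%. The other motifs were searched on both strands with the 11 starts: TTTCCCGC, TTTCGCGC or TTTGGCGC (E2F type, any of them in 1.53%), an NF-kB type motif (0.356%), TTCNNNGAA (STAT type, 7.02%), the interferon response element ISRE (2.98%) and TGANTCA (AP-1 type, 6.75%). Of these only TTTCCCGC was found, at position -99 before the upstream start of Cdkn2a. The motifs were chosen after the sequences were seen, a match is no evidence that a factor binds, and the lack of a match says only that these letters are not in the window.

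**Figure D2:**
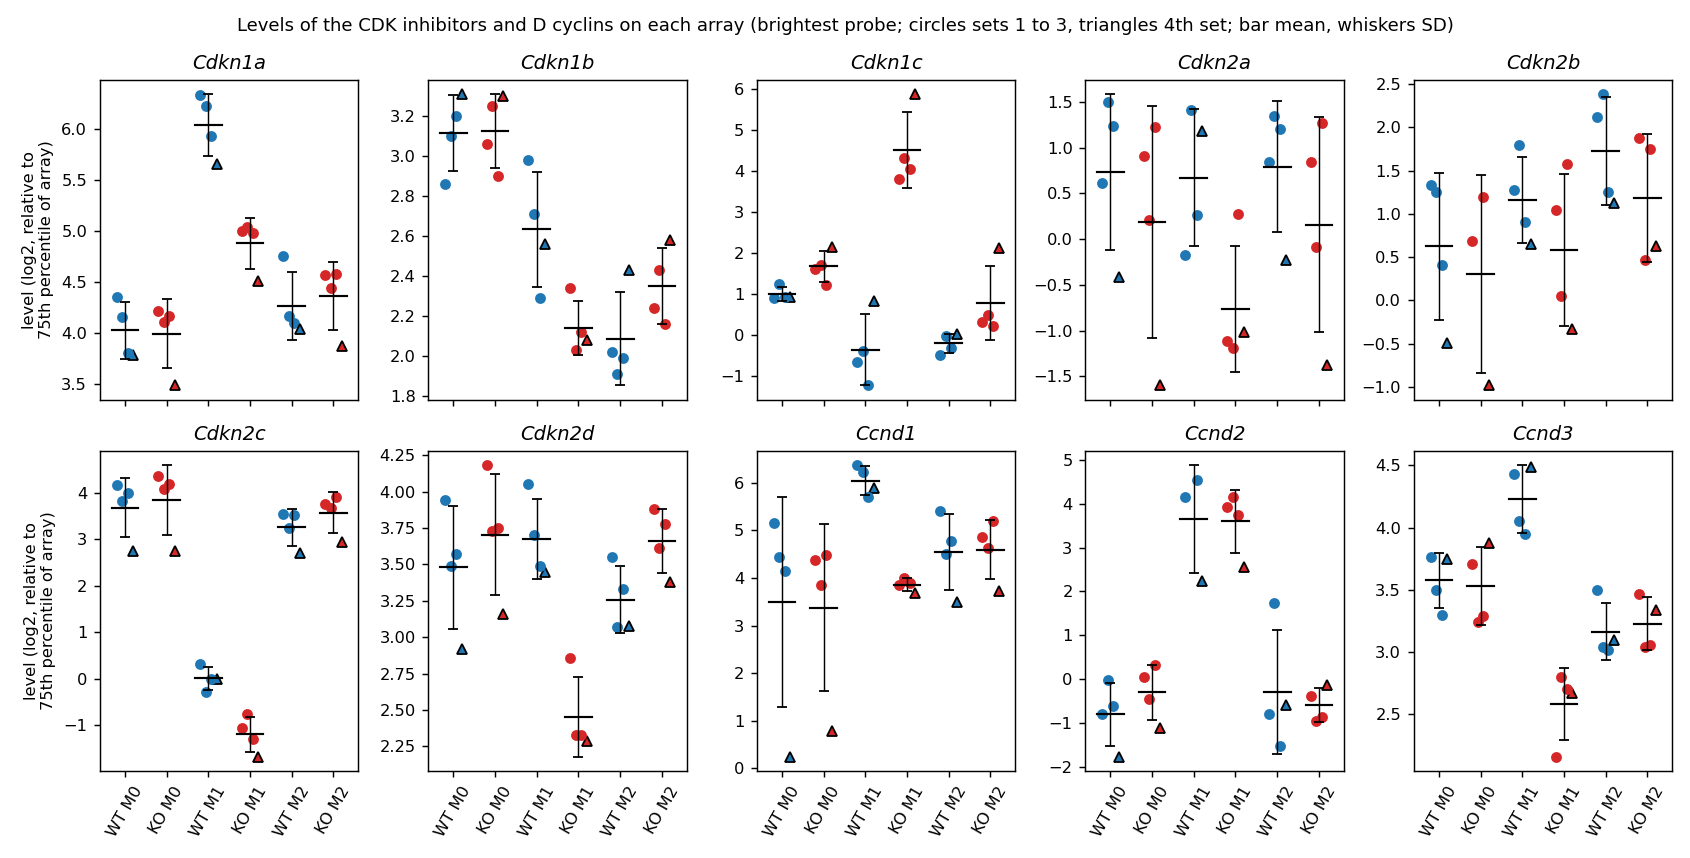
Level of each member (brightest probe, log2 relative to the 75th percentile of the array, vertical axis) on every array of the 6 groups; circles are sets 1 to 3, triangles the 4th set, bars the group mean and whiskers the SD. Cdkn1c stands at 3.81 to 5.86 in KO M1 and at or below 2.15 on all other arrays, and Cdkn2c falls from 2.74 or more in M0 to 0.31 or less in M1.

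Among the CIP/KIP inhibitors, Cdkn1a (p21, which arrests the cycle after DNA damage and many stresses) rose with LPS and IFNγ, and rose less in KO. In M0 Cdkn1a read 4.36, 3.79, 4.16 and 3.81 on WT replicates 1 to 4 and 4.22, 3.49, 4.11 and 4.17 on KO replicates 1 to 4. M1 levels of Cdkn1a were 6.33, 6.23, 5.66 and 5.93 on the WT arrays and 5.00, 5.04, 4.51 and 4.98 on the KO arrays. M2 levels of Cdkn1a were 4.76, 4.17, 4.10 and 4.04 on the WT arrays and 4.57, 4.44, 4.58 and 3.88 on the KO arrays. All 4 WT M1 arrays were above all others, the KO M1 arrays came next and overlapped the M2 arrays, and the M0 groups were lowest and overlapped each other. In WT the rise was 2.01 ± 0.21 (4.03-fold, adjusted p = 1.4e-07 by limma) and in KO 0.89 ± 0.21 (1.85-fold, adjusted p = 0.00133). The difference between these responses was -1.13 ± 0.30 (adjusted p = 0.00675 by limma), and KO M1 was 2.23-fold below WT M1 (-1.16 ± 0.21, adjusted p = 1.4e-04), with -1.33 to -0.95 in the 4 sets. Under quantile normalization the rise in KO was 0.39 with an adjusted p of 0.0968, so that the call in KO depends on the scaling, whereas the difference between genotypes in M1 was then -1.43 (adjusted p = 3.6e-06).

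A probe for another Cdkn1a transcript showed no detectable rise in KO. This probe (A_55_P1986282, accession NM_001111099, mm9 chromosome 17, 29227986 to 29228045) lies 9451 bases from the far end of the brightest probe (A_51_P363947, NM_007669, 29237377 to 29237436), in a gene that is 9744 bases long in GRCm38, and so lies near its 5′ end, ahead of the downstream start printed above. On the M1 arrays it read -0.32, -0.15, 0.30 and -0.35 for WT and -1.60, -1.55, -1.26 and -1.31 for KO. On the M0 arrays it read -1.25, -0.72, -1.27 and -1.52 for WT and -1.33, -1.39, -1.48 and -1.01 for KO. Every WT M1 array was above every M0 array, while KO M1 and KO M0 overlapped. The rise was 1.06 ± 0.19 in WT (adjusted p = 1.0e-04 by limma) and the KO change -0.13 ± 0.19 (adjusted p = 0.601), with a difference between responses of -1.19 ± 0.27 (adjusted p = 0.00189). Whether the probes differ from each other within KO was not tested. The third Cdkn1a probe (A_55_P1976204, ENSMUST00000122348) rose by 1.43 ± 0.46 in WT (adjusted p = 0.0136 by limma) and gave 0.53 ± 0.46 in KO (adjusted p = 0.343).

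Cdkn1b (p27, which holds cells in quiescence and is cleared by proteolysis on entry into the cycle) was highest in M0 and lower after either activation. In M0 Cdkn1b read 2.86, 3.31, 3.1 and 3.20 on the WT arrays and 3.06, 3.30, 3.25 and 2.90 on the KO arrays. M1 levels of Cdkn1b were 2.98, 2.71, 2.56 and 2.29 on the WT arrays and 2.34, 2.03, 2.08 and 2.12 on the KO arrays. M2 levels of Cdkn1b were 2.02, 1.91, 1.99 and 2.43 on the WT arrays and 2.24, 2.43, 2.16 and 2.58 on the KO arrays. The M0 groups coincided, the M2 groups lay wholly below them, and WT M1 overlapped WT M0 while KO M1 lay wholly below KO M0. With IL-4 Cdkn1b changed by -1.03 ± 0.15 in WT (2.04-fold down, adjusted p = 7.6e-05 by limma) and -0.77 ± 0.15 in KO (1.71-fold down, adjusted p = 0.00149). With LPS and IFNγ it changed by -0.98 ± 0.15 in KO (1.97-fold down, adjusted p = 1.2e-05 by limma) and -0.48 ± 0.15 in WT (adjusted p = 0.0122). KO M1 minus WT M1 was -0.49 ± 0.15 (adjusted p = 0.0116 by limma), although the groups overlapped, and the responses did not differ past the threshold (-0.50 ± 0.21, adjusted p = 0.0908). The WT call was lost without the 4th set (adjusted p = 0.0532) and without WT M1 replicate 4 (0.0592), and the genotype call without WT M1 replicate 1 (-0.38, 0.0564). A dimmer second probe (A_52_P673863, well above background on 21 of 24 arrays and 1 of 4 in KO M1) changed by -1.17 ± 0.34 in WT and -2.16 ± 0.34 in KO with LPS and IFNγ (adjusted p = 0.00761 and 1.6e-05 by limma).

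Cdkn1c (p57, a CDK inhibitor from an imprinted gene that acts in development and in quiescent stem cells) was the 1 member that was higher in KO M1. Its difference was the largest of the 10. In M0 Cdkn1c read 0.90, 0.94, 1.24 and 0.92 on the WT arrays and 1.62, 2.15, 1.72 and 1.23 on the KO arrays. M1 levels of Cdkn1c were -0.64, -0.39, 0.84 and -1.22 on the WT arrays and 3.81, 4.32, 5.86 and 4.04 on the KO arrays. M2 levels of Cdkn1c were -0.49, -0.03, -0.30 and 0.02 on the WT arrays and 0.32, 0.49, 0.22 and 2.12 on the KO arrays. The lowest KO M1 array was above the highest of all other arrays, and the highest WT M1 and KO M1 arrays were both of the 4th set. KO M1 exceeded WT M1 by 4.86 ± 0.45 (29.1-fold, adjusted p = 2.2e-08 by limma), with 4.46 to 5.26 in the 4 sets and 4.81 without the 4th set. LPS and IFNγ changed Cdkn1c in opposite directions, by -1.35 ± 0.45 in WT (adjusted p = 0.017 by limma) and by 2.83 ± 0.45 in KO (7.11-fold, adjusted p = 1.5e-05). The responses differed by 4.18 ± 0.63 (adjusted p = 3.3e-05 by limma), and by 4.30 without the 4th set. The fall in WT was -0.11 in the 4th set and -1.77 without it (adjusted p = 5.9e-06), and the call was lost without WT M1 replicate 4 (-1.06, adjusted p = 0.0728).

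With IL-4 Cdkn1c changed by -1.2 ± 0.45 in WT and -0.89 ± 0.45 in KO (adjusted p = 0.0786 and 0.213 by limma). Without the 4th set both passed (-1.29 and -1.18, adjusted p = 7.1e-04 and 0.00172). The sole probe (A_55_P2733752, NM_001161624, mm9 chromosome 7, 150644297 to 150644356) was well above background on all 24 arrays. Markers of other cells were called at shares near or below the 44.3% of all genes called in KO M1 against WT M1. Their median differences, however, lay above the 0.13 of all genes. Of 7 tested progenitor, erythroid and mast cell markers 3 were higher than in WT M1 (median 1.8). Of 10 neutrophil markers 3 were higher and 2 lower (median 1.38). Kit, a stem and mast cell receptor, was the highest of the progenitor list (3.05 ± 0.33, adjusted p = 2.2e-07 by limma). The summed level of the progenitor list ran from -1.42 to -0.82 in WT M1 and from -0.87 to 1.13 in KO M1, and that of the neutrophil list from 4.45 to 6.26 and from 6.18 to 7.54. Of the 12 macrophage markers 1 was higher in KO M1 and 5 lower (median -0.88), and of 8 tested lymphocyte markers 2 were higher (median 0.55). Of 7 dendritic cell markers 2 were higher and 1 lower (median 0.66), and of 7 fibroblast markers 1 was higher (median 0.77). The part of these cells in the differences of Cdkn1c and the other members was not tested. In RNA of whole cultures a change in the share of a cell type and a change in RNA per cell cannot be told apart.

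Within the INK4 family, Cdkn2c (p18, an inhibitor of CDK4 and CDK6 that accumulates in dividing cells) fell farthest of all 10 members. In M0 Cdkn2c read 4.16, 2.74, 3.83 and 4.00 on the WT arrays and 4.37, 2.74, 4.08 and 4.19 on the KO arrays. M1 levels of Cdkn2c were 0.31, -0.29, -0.01 and 0.00 on the WT arrays and -1.06, -0.77, -1.68 and -1.31 on the KO arrays. M2 levels of Cdkn2c were 3.55, 3.25, 3.52 and 2.70 on the WT arrays and 3.77, 3.68, 3.91 and 2.94 on the KO arrays. All M1 arrays were below all M0 and M2 arrays, KO M1 was wholly below WT M1, and the lowest array of each M0 and M2 group belonged to the 4th set. With LPS and IFNγ Cdkn2c changed by -3.68 ± 0.34 in WT (12.8-fold down, adjusted p = 2.4e-08 by limma) and -5.05 ± 0.34 in KO (33.1-fold down, adjusted p = 1.1e-10). KO M1 was 2.31-fold below WT M1 (-1.21 ± 0.34, adjusted p = 0.00653 by limma). The responses differed by -1.37 ± 0.49 (adjusted p = 0.0373 by limma), and by -1.27 without the 4th set (adjusted p = 8.5e-04). The call of the difference in responses was near the threshold: it was lost without any 1 of WT M0 replicate 2, WT M1 replicates 1, 3 and 4, KO M0 replicates 1, 3 and 4, and KO M1 replicates 3 and 4 (adjusted p 0.0528 to 0.0861), and with another background correction (-1.21, 0.0692). With IL-4 Cdkn2c changed by -0.43 ± 0.34 in WT (adjusted p = 0.452 by limma), and by -0.56 without the 4th set (adjusted p = 0.0297). The second Cdkn2c probe, whose bases overlap those of the first, gave -3.80 ± 0.36 in WT and -5.18 ± 0.36 in KO.

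Cdkn2d (p19INK4d, the fourth INK4 inhibitor) responded to LPS and IFNγ in KO but showed no detectable response in WT. In M0 Cdkn2d read 3.94, 2.92, 3.49 and 3.57 on the WT arrays and 4.18, 3.16, 3.73 and 3.75 on the KO arrays. M1 levels of Cdkn2d were 4.05, 3.70, 3.45 and 3.49 on the WT arrays and 2.86, 2.33, 2.29 and 2.33 on the KO arrays. M2 levels of Cdkn2d were 3.55, 3.07, 3.33 and 3.08 on the WT arrays and 3.88, 3.61, 3.78 and 3.38 on the KO arrays. KO M1 lay wholly below each of the other 5 groups, each of which overlapped the next in order of mean. The change in KO was -1.25 ± 0.22 (2.38-fold down, adjusted p = 5.4e-05 by limma) and that in WT 0.19 ± 0.22 (95% interval -0.27 to 0.65, adjusted p = 0.514). The responses differed by -1.44 ± 0.31 (adjusted p = 0.0012 by limma), with -1.61 to -1.34 in the 4 sets, and KO M1 was 2.33-fold below WT M1 (-1.22 ± 0.22, adjusted p = 1.1e-04).

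Cdkn2a (p16INK4a and, from another first exon, p19ARF, which stabilises p53) and Cdkn2b (p15, a target of TGF-beta signalling) gave no call in any comparison. In M0 Cdkn2a read 0.61, -0.41, 1.5 and 1.24 on the WT arrays and 0.91, -1.60, 0.21 and 1.23 on the KO arrays. M1 levels of Cdkn2a were -0.17, 1.41, 1.18 and 0.26 on the WT arrays and -1.11, -1.19, -1.02 and 0.27 on the KO arrays. M2 levels of Cdkn2a were 0.84, 1.35, 1.21 and -0.23 on the WT arrays and 0.84, -0.09, 1.27 and -1.38 on the KO arrays. The array of the 4th set was the lowest of each M0 and M2 group, and every pair of neighbouring groups overlapped. KO M1 minus WT M1 was -1.43 ± 0.63 (adjusted p = 0.07 by limma), with -2.60 to 0.01 in the 4 sets, and -1.97 ± 0.84 (adjusted p = 0.061) by a second probe that was well above background on 1 of 4 KO M1 arrays. This difference passed with the set as a block (adjusted p = 0.0221) and without any 1 of WT M1 replicate 1, KO M0 replicate 2, KO M1 replicate 4 or KO M2 replicate 4 (0.0382 to 0.0497). Without the 4th set the response to LPS and IFNγ in KO passed (-1.46, adjusted p = 0.016), as it did without KO M0 replicate 2 (-1.55, 0.0339), against -0.95 ± 0.63 (0.208) with all arrays.

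In M0 Cdkn2b read 1.33, -0.49, 1.25 and 0.41 on the WT arrays and 0.69, -0.98 and 1.2 on the KO arrays, where replicate 3 was missing as an outlier spot (n = 3). M1 levels of Cdkn2b were 1.28, 1.79, 0.65 and 0.91 on the WT arrays and 1.05, 0.05, -0.33 and 1.57 on the KO arrays. M2 levels of Cdkn2b were 2.12, 2.38, 1.25 and 1.13 on the WT arrays and 1.88, 0.47, 1.75 and 0.63 on the KO arrays. The 6 groups overlapped throughout, and WT M2 was highest on average (1.72 ± 0.62). The largest difference was the response of WT to IL-4, 1.09 ± 0.53 (adjusted p = 0.187 by limma), which passed with the set as a block (0.0483).

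The D cyclins are the partners of CDK4 and CDK6, and Ccnd1, cyclin D1, is a classical M-CSF target in macrophages. In M0 Ccnd1 read 5.16, 0.25, 4.43 and 4.15 on the WT arrays and 4.38, 0.79, 3.84 and 4.49 on the KO arrays. M1 levels of Ccnd1 were 6.36, 6.23, 5.88 and 5.69 on the WT arrays and 3.84, 4.00, 3.68 and 3.90 on the KO arrays. M2 levels of Ccnd1 were 5.40, 4.50, 4.77 and 3.50 on the WT arrays and 4.85, 4.62, 5.19 and 3.72 on the KO arrays. The 4 WT M1 arrays were above all others, KO M1 lay within the range of the M0 arrays, and the 2 M0 arrays of the 4th set were lower than all the rest. KO M1 minus WT M1 was -2.19 ± 0.83 (4.55-fold down, adjusted p = 0.0359 by limma), with -2.52 to -1.79 in the 4 sets, and -2.18 without the 4th set (adjusted p = 2.0e-05). The call was lost without any 1 of WT M1 replicates 1 to 3 or KO M1 replicates 1 to 4 (-2.24 to -2.08, adjusted p 0.0546 to 0.0764), although the genotypes did not overlap. The test pools the spread of all groups, and it was widest in M0 (SD 2.21 in WT and 1.75 in KO, against 0.31 and 0.13 in M1).

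In WT Ccnd1 rose with LPS and IFNγ by 2.54 ± 0.83 (5.83-fold, adjusted p = 0.0149 by limma). Without the 4th set the rise was 1.52 (adjusted p = 4.4e-04), and without WT M0 replicate 2 alone it was 1.46 (adjusted p = 0.0688). In KO the change was 0.48 ± 0.83 (95% interval -1.25 to 2.2, adjusted p = 0.649), and -0.33 without the 4th set (adjusted p = 0.345). The responses differed by -2.07 ± 1.17 (adjusted p = 0.206 by limma), past the threshold without the 4th set (-1.84, adjusted p = 0.00276) and without KO M0 replicate 2 (-2.93, 0.0355).

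Ccnd2 (cyclin D2) was low in M0 and M2 and rose with LPS and IFNγ in both genotypes alike in direction. In M0 Ccnd2 read -0.80, -1.76, -0.02 and -0.62 on the WT arrays and 0.06, -1.11, -0.46 and 0.32 on the KO arrays. M1 levels of Ccnd2 were 4.15, 2.25 and 4.54 in WT, where replicate 2 was missing as an outlier spot (n = 3), and 3.93, 4.16, 2.56 and 3.74 in KO. M2 levels of Ccnd2 were -0.79, 1.73, -1.52 and -0.59 on the WT arrays and -0.37, -0.94, -0.86 and -0.14 on the KO arrays. Every M1 array was above every M0 and M2 array, the lowest M1 array of each genotype was of the 4th set, and the genotypes overlapped in each state. The rise was 4.45 ± 0.65 in WT (21.8-fold, adjusted p = 1.2e-05 by limma) and 3.89 ± 0.60 in KO (14.9-fold, adjusted p = 1.4e-05). KO M1 minus WT M1 was -0.05 ± 0.65 (95% interval -1.41 to 1.31, adjusted p = 0.957 by limma). The other Ccnd2 probes (A_52_P53906 and A_65_P18532, both with 4 WT M1 arrays) gave rises of 4.79 ± 0.48 and 4.89 ± 0.50 in WT and 4.08 ± 0.48 and 4.07 ± 0.50 in KO. On these the value of WT M2 replicate 2 was -2.66 and -2.09, in the range of the other M2 arrays, unlike the 1.73 of the brightest probe.

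Ccnd3 (cyclin D3) rose in WT and fell in KO with LPS and IFNγ by its brightest probe. In M0 Ccnd3 read 3.76, 3.75, 3.50 and 3.30 on the WT arrays and 3.71, 3.88, 3.24 and 3.29 on the KO arrays. M1 levels of Ccnd3 were 4.43, 4.05, 4.49 and 3.95 on the WT arrays and 2.16, 2.80, 2.67 and 2.70 on the KO arrays. M2 levels of Ccnd3 were 3.50, 3.04, 3.02 and 3.1 on the WT arrays and 3.47, 3.04, 3.06 and 3.34 on the KO arrays. All 4 WT M1 arrays were above, and all 4 KO M1 arrays below, the 16 arrays of M0 and M2. KO M1 was 3.14-fold below WT M1 (-1.65 ± 0.18, adjusted p = 2.6e-07 by limma), with -2.27 to -1.25 in the 4 sets. The response was 0.66 ± 0.18 in WT (1.57-fold up, adjusted p = 0.00546 by limma) and -0.95 ± 0.18 in KO (1.93-fold down, adjusted p = 1.5e-04), and the responses differed by -1.60 ± 0.26 (adjusted p = 6.5e-05). Under quantile normalization the rise in WT was 0.42 (adjusted p = 0.0784). A second probe that overlaps the first gave -1.61 ± 0.19 for KO M1 minus WT M1 (adjusted p = 4.9e-07 by limma). The third (A_55_P2856671, ENSMUST00000182281), assigned to another transcript, gave -0.12 ± 0.16 (95% interval -0.45 to 0.21, adjusted p = 0.553 by limma). Its response to LPS and IFNγ was 0.34 in WT (95% interval 0.01 to 0.67) and 0.22 in KO (-0.11 to 0.55), neither of them called. Its responses differed between the genotypes by -0.12 (95% interval -0.58 to 0.35). The fall in KO was thus not seen by this probe, and whether it differs from the others was not tested.

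**Figure D3:**
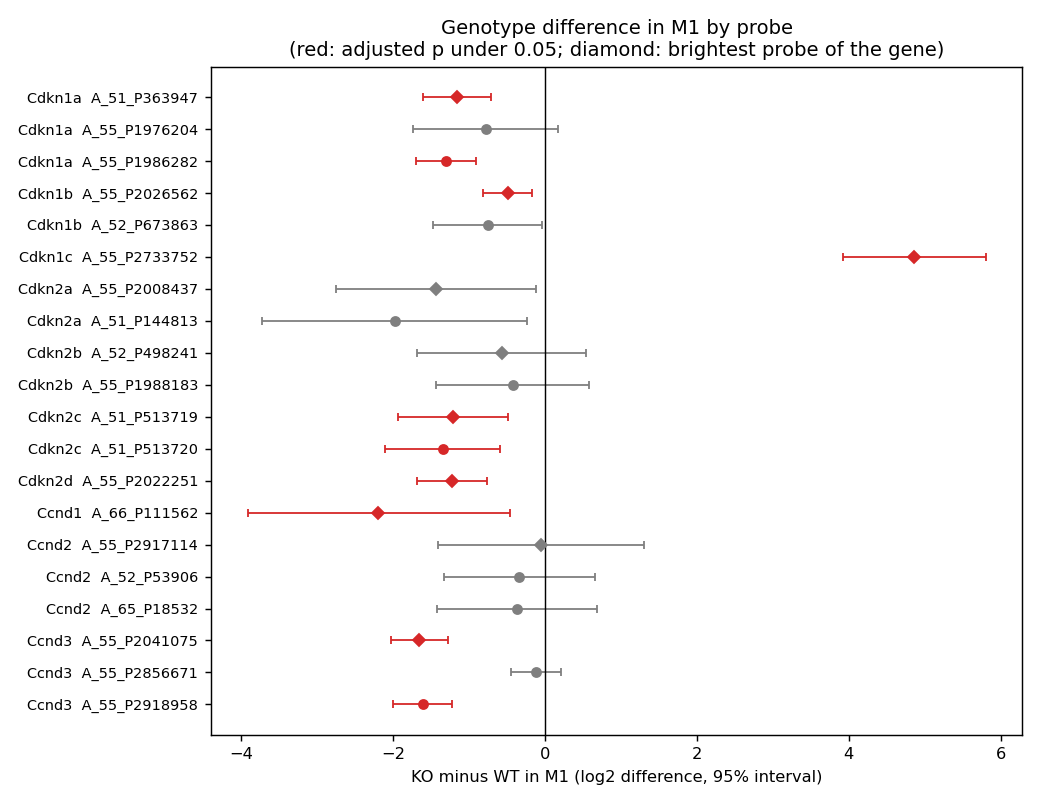
KO minus WT in M1 for each of the 20 member probes (horizontal axis, log2 difference; whiskers are 95% intervals of the fit; red marks adjusted p under 0.05, diamonds the brightest probe of a gene). In the 7 genes with more than 1 probe all probes pointed the same way, but the third Ccnd3 probe lies at -0.12, against -1.65 and -1.61.

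Set side by side by comparison, members were called between the genotypes in M1 and in neither M0 nor M2. In M1, 1 of 10 was higher in KO (Cdkn1c) and 6 were lower (Cdkn1a, Cdkn1b, Cdkn2c, Cdkn2d, Ccnd1 and Ccnd3), where 44.3% of all 25632 genes were called (5859 higher and 5497 lower). The share of members called, 7 of 10, is thus read against a state in which nearly as many genes as not were called. The median difference of the members was -1.19, against 0.13 over all genes. In M0, limma called 0 of 10 members, where 0.0546% of genes were called, and 0 members had an unadjusted p under 0.05, against 3.11% of all genes. In M2 it called 0 of 10, where 0.0468% of genes were called, and 1 member had an unadjusted p under 0.05 (Cdkn1c, 0.99 ± 0.45), against 4.37% of all genes. The KO M2 arrays of Cdkn1c (0.22 to 2.12) all lay above its WT M2 arrays (-0.49 to 0.02). Its 95% interval was 0.05 to 1.93 in M2 and -0.26 to 1.62 in M0, where the genotypes overlapped. The 95% intervals of the differences in M0 and M2 were narrowest for Cdkn1b (-0.31 to 0.32 in M0) and widest for Ccnd1 (-1.84 to 1.60 in M0).

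**Figure D4:**
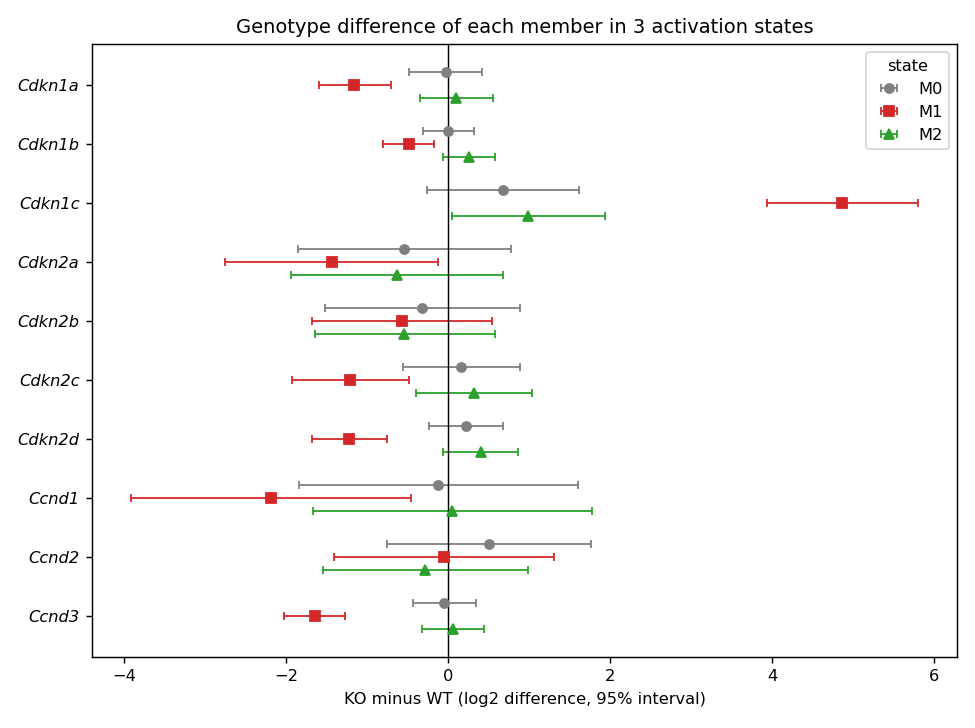
KO minus WT for each member in M0 (grey circles), M1 (red squares) and M2 (green triangles), as log2 difference with the 95% interval of the fit. The M0 and M2 points lie between -0.63 and 0.99, and the M1 points run from -2.19 for Ccnd1 to 4.86 for Cdkn1c.

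With LPS and IFNγ, 4 members rose in WT (Cdkn1a and the 3 D cyclins) and 3 fell (Cdkn1b, Cdkn1c and Cdkn2c), where 48.0% of genes were called. In KO 3 rose (Cdkn1a, Cdkn1c and Ccnd2) and 4 fell (Cdkn1b, Cdkn2c, Cdkn2d and Ccnd3), where 56.8% of genes were called. These comparisons use M0 arrays of their own genotype, and the difference of the responses was called for 5 of 10 members, 1 higher in KO (Cdkn1c) and 4 lower (Cdkn1a, Cdkn2c, Cdkn2d and Ccnd3), where 30.0% of genes were called. The members' median for that difference was -1.01, against 0.12 over all genes. With IL-4 the sole call was the fall of Cdkn1b, 1 of 10 in WT (15.1% of genes called) and 1 of 10 in KO (13.2% called). The responses to IL-4 did not differ between the genotypes for any of the 10, and limma called 0.0% of genes (0 of 25632, with 252 at an unadjusted p under 0.05 and 0 of the members).

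**Figure D5:**
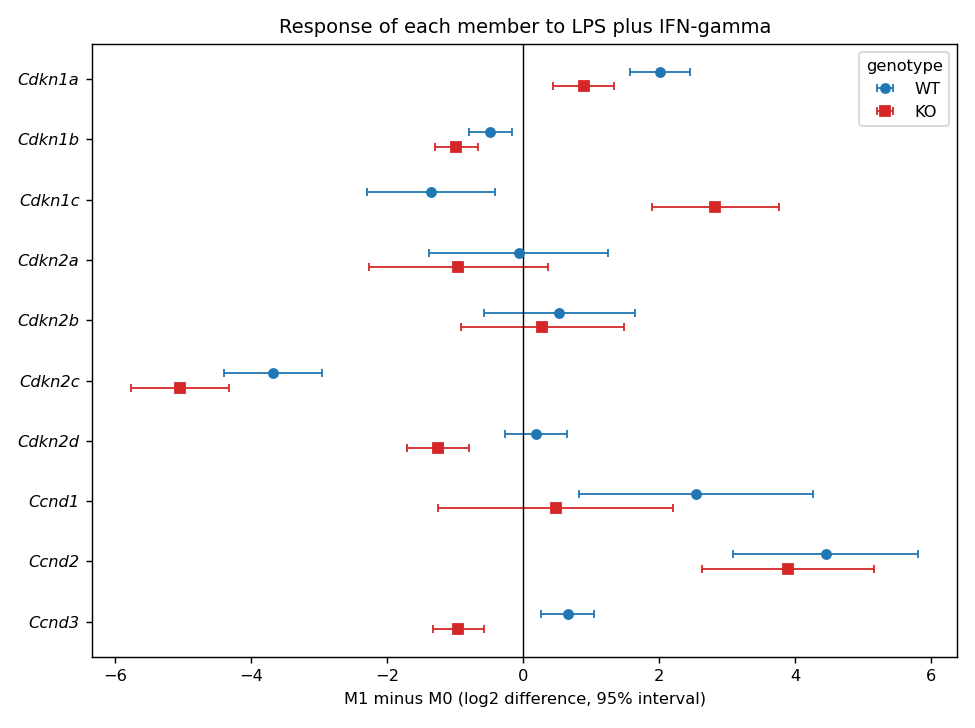
M1 minus M0 for each member (brightest probe) in WT (blue circles) and KO (red squares), as log2 difference with the 95% interval of the fit. Cdkn1c and Ccnd3 lie on opposite sides of 0 in the genotypes, at -1.35 and 2.83 and at 0.66 and -0.95, while Cdkn2c and Ccnd2 lie far from 0 on the same side in both.

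Between the activated states, which share their M1 arrays with the comparisons above, 4 members were higher in M1 than in M2 in WT (Cdkn1a 1.77 ± 0.21, Cdkn1b 0.55 ± 0.15, Ccnd2 3.94 ± 0.65 and Ccnd3 1.06 ± 0.18) and 1 was lower (Cdkn2c -3.25 ± 0.34), where 48.0% of genes were called. In KO 3 were higher (Cdkn1a 0.51 ± 0.21, Cdkn1c 3.72 ± 0.45 and Ccnd2 4.17 ± 0.60) and 3 lower (Cdkn2c -4.78 ± 0.34, Cdkn2d -1.21 ± 0.22 and Ccnd3 -0.65 ± 0.18), where 57.5% were called. The third Ccnd3 probe (A_55_P2856671) was called the other way in KO (0.42 ± 0.16, adjusted p = 0.0284 by limma). The call of Cdkn1b in WT was lost under quantile normalization (0.36, adjusted p = 0.0725), and its second probe gave -0.15 ± 0.34 (adjusted p = 0.761). The call of Cdkn1a in KO was weak (adjusted p = 0.0453 by limma) and was lost with the slide as a block (0.0574), under quantile normalization (0.11, adjusted p = 0.658), with no filter on dim probes (0.0684) and without 9 of the 24 single arrays, among them each of KO M1 replicates 1, 2 and 4 and KO M2 replicates 2 and 4 (0.0600 to 0.174). The Cdkn1a probe A_55_P1986282 gave -0.45 ± 0.19 in KO (adjusted p = 0.0517 by limma), which passed without the 4th set (-0.63, adjusted p = 0.00507) and with the set as a block (0.049). Without the 4th set M1 against M2 also passed for Ccnd1 in WT (1.2, adjusted p = 0.00259, against 1.5 ± 0.83 and 0.147 with it) and in KO (-0.97, 0.00871, against -0.74 ± 0.83 and 0.458), and for Cdkn2a in KO (-1.35, 0.0231, against -0.92 ± 0.63 and 0.217).

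Genes on either side of these regulators were read from lists. The counts for KO M1 against WT M1 stand beside 44.3% of all genes called and a median of 0.13, and those for LPS and IFNγ beside 48.0% called in WT and 56.8% in KO. Of 16 CDK and cyclin partners, 8 were higher in KO M1 than in WT M1 and 3 lower (median 0.86). Ccnb1, a mitotic cyclin, and Ccne1, the cyclin that drives entry into S phase, were higher by 2.24 ± 0.40 and 1.75 ± 0.51, and Cdk2 and Cdk6, kinases that the inhibitor families act on, changed by -1.74 ± 0.15 and -1.67 ± 0.42 (adjusted p = 1.1e-04, 0.00826, 1.4e-08 and 0.00272 by limma). Cdk4, named after its value was seen because it is the other partner of the D cyclins, was higher by 0.86 ± 0.17 (adjusted p = 2.8e-04). With LPS and IFNγ 9 of the 16 fell in WT and 8 in KO, led in both by Ccna2 (-8.63 ± 0.38 and -7.13 ± 0.38), the cyclin of S phase and G2, and Ccnb2 (-6.54 ± 0.39 and -5.76 ± 0.39).

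S phase and mitosis genes fell with LPS and IFNγ in both genotypes, 27 of 32 in WT (median -3.76) and 26 in KO (median -2.82). In M1, 11 of the 32 were higher in KO and 4 lower (median 0.66), a share close to that of all genes, with Mki67, the proliferation antigen, higher by 2.94 ± 0.30 and the replicative helicase subunit Mcm6 changed by -1.68 ± 0.45 (adjusted p = 9.6e-08 and 0.00436 by limma). The Rb and E2F list was mixed in M1, with 6 of 18 higher in KO and 5 lower (median 0.02); E2f5, a repressor-type E2F, was higher by 1.49 ± 0.13, and the activators E2f2 and E2f1 changed by -2.01 ± 0.32 and -1.52 ± 0.16 (adjusted p = 1.3e-08, 2.3e-05 and 1.6e-07).

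Among p53 and its targets, to which Cdkn1a belongs, 6 of 23 tested were higher in KO M1 and 6 lower (median 0.26). Gadd45a and Perp were higher by 3.37 ± 0.40 and 2.16 ± 0.52, and Sesn1 and Pidd1 changed by -1.01 ± 0.30 and -0.98 ± 0.31 (adjusted p = 6.6e-07, 0.00185, 0.0085 and 0.0145 by limma). With LPS and IFNγ the list gave 7 rises and 7 falls in WT and 7 and 10 in KO; Fas, a death receptor, rose by 2.2 ± 0.27 and 2.23 ± 0.27.

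Of 21 tested regulators of the INK4 genes, 9 were higher in KO M1 and 4 lower (median 0.24). Id1, an inhibitor of helix-loop-helix factors, and Kdm6b, which removes the Polycomb mark, were higher by 2.27 ± 0.53 and 1.79 ± 0.36, and Cbx8 and Cbx7, Polycomb subunits, changed by -0.72 ± 0.11 and -0.71 ± 0.28. Of 27 tested inputs to D cyclins and p27, 2 were higher and 9 lower (median -0.22), with Myc higher by 3.31 ± 0.72 and Tcf7l2, a Wnt effector, and Klf2, a quiescence factor, changed by -2.36 ± 0.15 and -2.13 ± 0.41. Of 16 genes for the turnover of p27 and D cyclins 5 were higher and 5 lower (median -0.03); Cks1b, the cofactor that brings p27 to its ubiquitin ligase, was higher by 2.03 ± 0.41, and Fbxo4 and Fbxo31, F-box proteins reported to target cyclin D1, changed by -1.52 ± 0.10 and -1.32 ± 0.13. All the genes named in this paragraph passed the limma threshold in M1 (adjusted p 2.2e-10 to 0.0417).

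In M0 and M2 0 genes of these 7 lists were called between the genotypes by limma, in the same comparisons in which 14 and 12 of all genes were. With IL-4, 0 of 32 S phase and mitosis genes were called in either genotype, and among the inputs to D cyclins and p27 Klf4 rose by 3.33 ± 0.50 in WT and 3.07 ± 0.50 in KO and Myc by 2.74 ± 0.72 and 2.92 ± 0.72 (adjusted p = 9.6e-05, 2.6e-04, 0.0122 and 0.00889 by limma).

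Genes whose 6 group means ran most like those of a member were sought among 11444 genes well above background on all arrays, by the mean absolute difference after centring. Ccnd3 had the closest, Zfp677 at 0.02, Fam72a at 0.05 and Nudt13 at 0.05. For Cdkn1a they were Samhd1 and Klf8 at 0.08 and Sirt6 at 0.09, for Cdkn1b Nfatc1 at 0.05, Mthfd2l and Ttc32 at 0.07, and for Cdkn2d Rcan3 at 0.06 and Slc35a1 at 0.08. Cdkn2c ran most like Fbxo5 (0.15), Sort1 and D17H6S56E-5 (0.16), and Ccnd2 like Ccl5 (0.16), Tapbpl (0.19) and Phf11b (0.20). Ccnd1 was nearest to Cttn (0.13), Radx (0.16) and St6gal2 (0.20). For Cdkn1c the nearest were Rora at 0.43 and Grasp and Slco4a1 at 0.47, against a span of 4.86 over its group means. This measure is not scaled to the span, so it cannot rank how close the matches of different members are. Genes at background outside KO M1 were not among those searched. For Cdkn2a the nearest were Icam5 (0.10), Opn3 (0.13) and C1qtnf6 (0.14), and for Cdkn2b Erich5 and Agpat3 (0.12) and Ephb1 (0.14).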

How the data were processed

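RNA of 24 macrophage cultures, 4 in each of 6 groups, was hybridised to one-colour Cy3 Agilent arrays. The deposited scanner files hold processed intensities that Feature Extraction had corrected for background, in version 10.7.3.1 per the file headers and 9.1 per the submitters' processing notes. From these intensities log2 values were taken, spots of 1 probe were averaged after outlier spots were dropped (2638 missing values), and the 75th percentile over gene probes of each array was subtracted. Probes well above background on at least 4 arrays (38857) were fitted with limma 3.58.1 in R 4.3.3 on all 6 groups (18 residual and 2.01 prior degrees of freedom), and p-values were adjusted by Benjamini-Hochberg over all of them. All adjusted p-values are from that fit or its alternatives, and the scripts were tested on simulated data.

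The members and gene lists were chosen with earlier results of these data known. The text names every member and, from each list, the 2 genes that rose and the 2 that fell most among those called, or some of them. Likeness was sought for members whose group means span over 1 on the log2 scale, and a gene that this rule names is not reported here. Cultures of WT and KO of the same state and replicate number deviated together (correlations over probes 0.17 to 0.85 in the 12 pairs), so the number was taken to pair them within a state. The main fit holds no term for this pairing. In 3 of the 12, however, a culture with another number correlated more (0.40 against 0.27, 0.33 against 0.17 and 0.24 against 0.22). The labels do not say that the numbers mark a litter or day. Positions of probes are those of the file headers (mm9), and promoters are RefSeq on GRCm38.p6. Alternatives changed the scaling, background correction, filter, blocks and arrays used. The precision is limited by 4 arrays a group.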

Additional observations from a re-analysis of the deposited data

Results flagged for a closer look

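Of 58 groups of 4 arrays, 7 held an array far from the other 3 by Dixon's criterion, where chance gives about 1 in 20. They were Cdkn1a on KO M0 replicate 2 (3.49) and on KO M1 replicate 3 (4.51), Cdkn1c on WT M0 replicate 3 (1.24) and on KO M2 replicate 4 (2.12), Cdkn2a on KO M1 replicate 4 (0.27), Cdkn2d on KO M1 replicate 1 (2.86) and Ccnd3 on WT M2 replicate 1 (3.5). Both Cdkn1a arrays and the KO M2 array of Cdkn1c belong to the 4th set.

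The response to LPS and IFNγ differed between the genotypes, by the interaction test of limma, for Cdkn1a (-1.13), Cdkn1c (4.18), Cdkn2c (-1.37), Cdkn2d (-1.44) and Ccnd3 (-1.6). For Cdkn1c and Ccnd3 the fitted responses of the brightest probe had opposite signs in the genotypes. The third Ccnd3 probe gave 0.34 in WT and 0.22 in KO, neither of them called.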

How the results depend on the processing

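No result changed direction past the threshold. Over 7986 values of member probes under alternatives, 7753 kept their side of the threshold, 157 lost a call, 76 gained one and 0 reversed. Most of these values came from leaving out 1 array (5170 kept, 83 lost, 27 gained), often one of neither group compared. Many results were also not called to begin with, so this total says little about any single call. The 7 calls for LPS and IFNγ in WT became 4 without set 2 and 4 without set 3. The share of all probes called went from 48.1% to 38.2% and 36.4%. The 5 genotype differences of that response became 3 and 3, where the share of probes went from 30.5% to 21.3% and 22.5%. These alternatives were chosen after seeing the data. The single call for IL-4 in WT became 3 with the set as a block, 3 without the 4th set and 2 with only the groups compared. The share of all probes called was 15.1% in the main fit and 26.5%, 22.6% and 7.9% in these. In KO the single call became 3, 2 and 1, where the share was 13.5% in the main fit and 24.4%, 16.5% and 9.4% in these. Leaving out 1 array gave 1 to 2 calls for IL-4 in each genotype, 6 to 8 for KO against WT in M1 and 4 to 6 for the genotype difference of the M1 response. The shares of all probes called in those fits are not reported here. The replicate block left 7 calls for KO against WT in M1 (47.4% of probes called) and 5 for the difference of responses (32.5%). Among brightest probes it changed the call of Cdkn2d in M1 against M2 in WT (adjusted p = 0.0219, against 0.133, by limma) and no other. Across states this block joins arrays of different sets, since replicate 2 is of the 4th set in M0 and of set 2 in M1 and M2. It thus follows the pairing of WT with KO within a state only, and is no check of pairing between states. Without set 1, 2 or 3 the M1 genotype call was lost for Ccnd1 (adjusted p = 0.125, 0.149 and 0.11), and the fall with LPS and IFNγ in WT for Cdkn1c (0.0887, 0.121 and 0.133). Quantile normalization moved the median of all probes in KO M1 against WT M1 from 0.14 to -0.03, and the share of higher probes among those called from 53.6% to 44.1%. Signals near background limit the second probes of Cdkn1b and Cdkn2a.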
